A study of Homo sapiens with 24 samples.

Results

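The comparison described here is that of hydroxyurea-treated (HU) against untreated (NT) cells in the polysomal RNA of LSM14A-depleted A2058 cells. It rests on 6 of the 24 libraries of the series, 3 labelled siLSM14A HU and 3 labelled siLSM14A NT, which were chosen by their labels for RNA fraction, siRNA and treatment. A2058 cells are an established line from a human melanoma. All 6 libraries came from cells transfected with siRNA against LSM14A, and HU was applied at 10 mM for 2 h. The remaining libraries were total RNA of the same siLSM14A groups, and both fractions of cells transfected with a control siRNA (siCTRL), treated in the same way. Polysomal RNA came from the heaviest fractions of a sucrose gradient, after a brief exposure of the cells to cycloheximide, which holds ribosomes on mRNA, and poly(A)+ RNA was sequenced. The siRNA is transient and leaves part of the LSM14A mRNA in place, and 1 cell line was used.

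Cells make the building blocks of DNA with the enzyme ribonucleotide reductase, and HU, which blocks it, is a standard agent for imposing replication stress. LSM14A is the human member of the Scd6 family of RGG-motif proteins, which bind translation initiation factors, repress translation and collect in processing bodies together with the decapping machinery and the helicase DDX6. Heavy polysomes are mRNAs with many ribosomes on them at once, so a gene's level in this fraction combines its transcript number with its ribosome load. The comparison asks which mRNAs changed in that fraction when LSM14A-depleted cells met replication stress. In bulk RNA, fewer cells of a type and less RNA per cell cannot be told apart.

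The depletion of LSM14A was visible in every library. In polysomal RNA the siLSM14A libraries held 1.59 to 2.47 CPM (counts per 1000000 counts of the library) of LSM14A, from 49 to 93 counts each. The siCTRL libraries held 23.6 to 52.0 CPM, so the groups did not overlap. In total RNA the ranges were 6.81 to 9.29 CPM and 90.8 to 102 CPM. HU and NT libraries of siLSM14A cells differed little in what was left, at 2.05 ± 0.0709 CPM and 1.91 ± 0.489 CPM (SD, n = 3 each).

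No gene passed the test in the comparison of the 6 libraries. Of 12290 protein-coding genes tested with edgeR's quasi-likelihood test, 0 had a Benjamini-Hochberg adjusted p-value under 0.05, and the smallest adjusted p-value was 1.0. At an unadjusted p-value under 0.05 there were 107 genes, 0.871% of those tested. Of these, 83 were higher with HU (0.675%) and 24 were lower (0.195%). Together they are a smaller share than the 0.05 of genes expected under this threshold if none differed. DESeq2 also gave 0 genes at an adjusted p-value under 0.05, and 122 at an unadjusted one. In 251 genes (2.04%) all 3 HU libraries lay above all 3 NT libraries, and in 433 (3.52%) all 3 lay below. If the labels made no difference, separation in either direction would be expected in a share of 0.1 of genes. Both directions together stayed below that share. The values that follow are therefore a description of the genes nearest to a call, and each named gene had an adjusted p-value of 1.0 in edgeR unless stated otherwise.

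Among genes higher with HU, 8 were named by their p-values. SOGA1, a regulator of microtubules and autophagy, had the smallest p of them. It stood at 45.9, 45.2 and 55.5 CPM in NT replicates 1 to 3 and at 92.8, 84.6 and 64.2 CPM in HU replicates 1 to 3, where CPM from here on are scaled by TMM factors. The HU libraries were all above the NT libraries, with a log2 fold change of 0.72 (SE 0.176). ZMIZ1, a transcriptional coactivator related to the PIAS proteins, had replicates close to each other in both groups. Its NT libraries held 50.4, 53.8 and 53.1 CPM and its HU libraries 76.9, 78.6 and 72.8 CPM, a log2 fold change of 0.54 (SE 0.137).

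EP300, the histone acetyltransferase p300, held 41.8, 28.5 and 27.8 CPM without HU and 57.5, 45.7 and 56.1 CPM with it (log2 fold change 0.70, SE 0.195). Its groups did not overlap, but NT replicate 1 lay closer to the HU libraries than to the other NT libraries. ANKRD11, a chromatin regulator that binds histone deacetylases, went from a mean of 52.4 ± 5.38 CPM to 80.3 ± 13.6 CPM (SD, n = 3 each), at a log2 fold change of 0.62. ARID1A, a subunit of the BAF chromatin remodeller, had means of 62.9 ± 8.77 and 90.2 ± 5.61 CPM, and a log2 fold change of 0.52 (SE 0.152). The RNA-binding proteins ZC3H18, which links the nuclear cap-binding complex to RNA decay, and SCAF4, which restrains early polyadenylation, had log2 fold changes of 0.46 and 0.50. None of these genes differed by as much in total RNA of the same cells, where the log2 fold changes of SOGA1, ZMIZ1, ANKRD11, EP300, ARID1A, ZC3H18 and SCAF4 lay between -0.01 and 0.10. They were chosen for their polysomal values here, which favours smaller values elsewhere. In polysomal RNA of siCTRL cells they lay between -0.03 (EP300) and 0.32 (SOGA1). None had an unadjusted p-value under 0.05 in edgeR for the difference between the siRNAs.

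PCDHGA2, a cell adhesion protein of the protocadherin gamma cluster, was the only one of the 8 genes named for being higher that had few counts. It had 25, 26 and 24 counts without HU and 46, 53 and 50 with it, and a log2 fold change of 1.05 (SE 0.305). The genes of the cluster share their last exons, so only 67.6% of its exon bases are its own and its reads could be split among 21 neighbours.

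Among genes lower with HU, HSPE1 was the one nearest to a call. HSPE1 is the co-chaperonin that caps HSPD1 in the mitochondrial matrix. It held 18.1, 22.6 and 20.7 CPM without HU and 14.1, 11.7 and 12.4 CPM with it, a log2 fold change of -0.69 (SE 0.176). The groups did not overlap, and total RNA gave -0.51 (SE 0.258). The read-through gene HSPE1-MOB4 shares part of its exons, and 89.5% of their bases belong to HSPE1 alone.

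PPA2, the mitochondrial inorganic pyrophosphatase, and EED, a subunit of Polycomb repressive complex PRC2, had many counts and small differences. PPA2 held 74.9, 74.7 and 78.0 CPM without HU and 59.2, 53.2 and 64.4 CPM with it (log2 fold change -0.36). EED held 34.3, 32.7 and 35.5 CPM without HU and 27.5, 22.6 and 27.7 CPM with it (log2 fold change -0.40). In both genes the NT libraries were close to each other and above all HU libraries.

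The other genes named for being lower had fewer counts. The KRAB zinc finger gene ZNF416 had a log2 fold change of -0.59 from 85 to 196 counts per library. COMMD3, a subunit of the Commander complex of endosomal sorting, had -0.80 from 50 to 113 counts, and shares exons with the read-through gene COMMD3-BMI1. The junctional adhesion molecule JAM3, at 13 to 34 counts, the small membrane protein gene SMIM8, at 7 to 34 counts, and the sorting nexin SNX22, at 28 to 115 counts, had log2 fold changes of -0.86, -1.07 and -1.06. SNX22 was the only one of the 8 lower genes whose HU and NT libraries overlapped. Exons of JAM3 and SNX22 overlap genes of the opposite strand over 35.6% and 20.2% of their bases, and whether the counting used strand was not given in the sources used here.

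**Figure D1:**
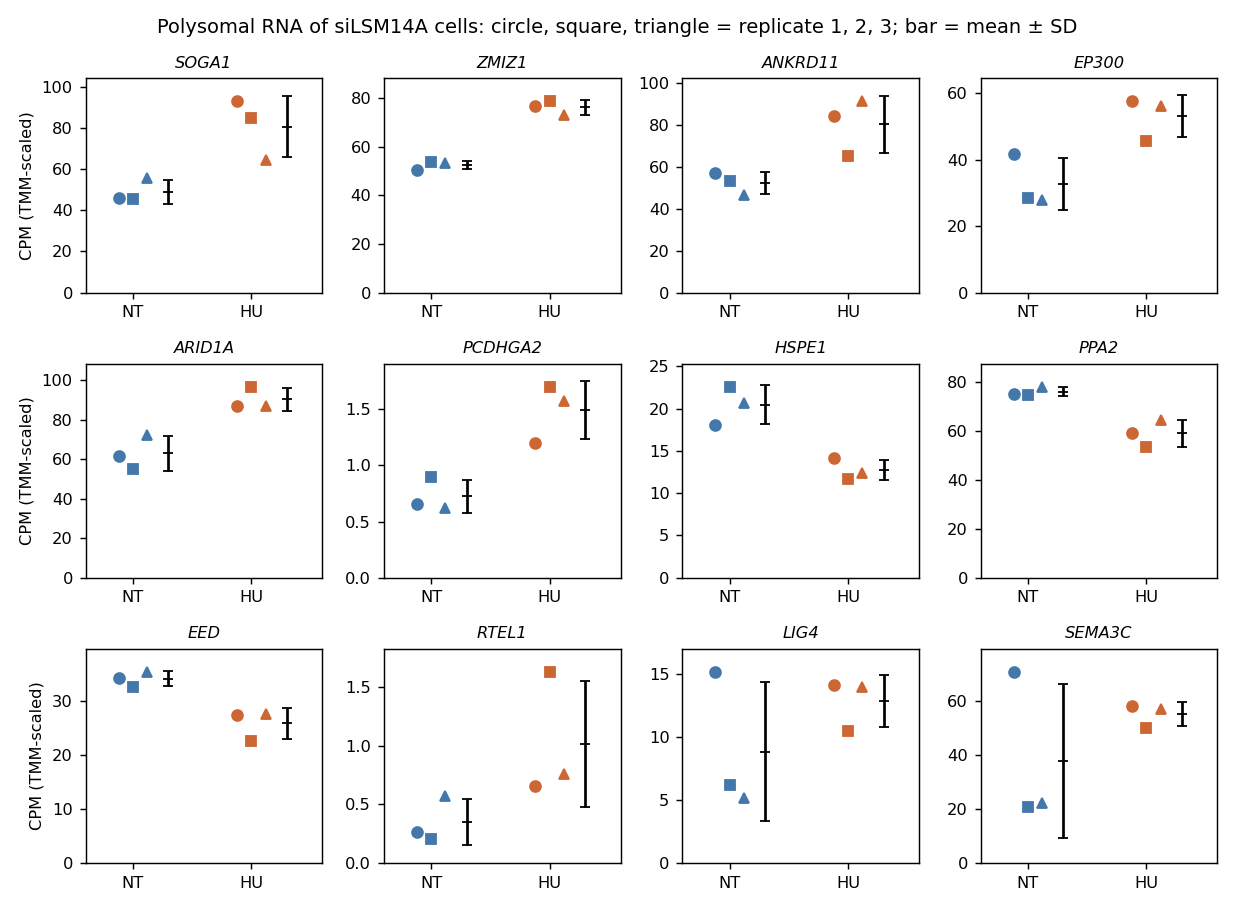
Polysomal CPM (TMM-scaled, linear axis from 0) of 12 named genes in the 3 NT and 3 HU libraries of siLSM14A cells; circle, square and triangle are replicates 1, 2 and 3, and the bar gives mean ± SD. The libraries do not overlap in SOGA1, ZMIZ1, ANKRD11, EP300, ARID1A, PCDHGA2, HSPE1, PPA2, EED and RTEL1, while in LIG4 and SEMA3C the first NT library lies above every HU library.

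LIG4 and RTEL1, which act in DNA repair, were followed by name in the study. LIG4 encodes DNA ligase IV, which seals double-strand breaks in non-homologous end joining, and lies at chr13:108859787-108870716 on the minus strand (GRCh37). It had 579, 181 and 198 counts in NT replicates 1 to 3, or 15.2, 6.21 and 5.14 CPM, and 14.1, 10.5 and 14 CPM in HU replicates 1 to 3. The first NT library thus exceeded all HU libraries, and the other NT libraries lay below all of them. The log2 fold change was 0.54 (SE 0.358). Over the fits without 1 library it ran from 0.25 without NT replicate 3 to 1.18 without NT replicate 1 (adjusted p = 0.146 in edgeR for the latter). In total RNA LIG4 had a log2 fold change of -0.23 (SE 0.0974).

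RTEL1 encodes a helicase that dismantles recombination intermediates and telomere loops, and lies at chr20:62289163-62327606 on the plus strand. It had 10, 6 and 22 counts without HU and 25, 51 and 24 with it, or 0.263, 0.206 and 0.571 CPM against 0.654, 1.63 and 0.755 CPM. The groups did not overlap, but the highest NT library held 22 counts and the lowest HU library 24. The log2 fold change was 1.5 (SE 0.496). Without HU replicate 2, the library with 51 counts, it was 0.96 and no longer had an unadjusted p-value under 0.05. Only 47.1% of the exon bases of RTEL1 lie outside the read-through gene RTEL1-TNFRSF6B, so some of its reads could have been counted elsewhere or not at all. HPRT1, a purine salvage enzyme used as a reference gene, had a log2 fold change of -0.15 (SE 0.157), from 45.8 ± 2.9 CPM without HU to 41.4 ± 5.26 CPM with it.

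The libraries of a group differed from one another by the base composition of the mRNAs they contained, and these differences were as large as those between HU and NT. Stretches of 30 coding bases with the GC content of their gene show the contrast. Each is the first such stretch in the longest coding exon of the gene's reference transcript, from the GRCh37 genome and written 5′ to 3′ on the gene's strand, with G and C in capitals. SEMA3C is the one gene that passed the test when a single library was left out, LIG4 is a repair gene that moved with the same library, and JUND and CEBPB are transcription factors with the opposite composition.
SEMA3C, chr7:80374590-80374619, minus strand: aGCtGaatGaaCGaataataGCCaCttCaC
LIG4, chr13:108863579-108863608, minus strand: CtCaCaaaCttCaCaaaCtGttGCatCtCa
JUND, chr19:18392256-18392285, minus strand: CCCttCtaCGGCGatGaGGCGCtGaGCGGC
CEBPB, chr20:48807571-48807600, plus strand: atGCaaCGCCtGGtGGCCtGGGaCCCaGCa
G and C make up 38.7%, 40.8%, 69.9% and 66.2% of the exons of these genes, against a median of 47.8% over all genes tested. SEMA3C, a secreted semaphorin, stood at 71.0, 20.8 and 22.2 CPM in NT replicates 1 to 3 and 58.4, 50.1 and 57.3 CPM in HU replicates 1 to 3. JUND stood at 37.3, 79.8 and 53.1 CPM without HU, and at 45.7, 52.8 and 46.7 CPM with it. CEBPB stood at 26.8, 75 and 59.2 CPM without HU, and at 37.7, 52.0 and 44.6 CPM with it. NT replicate 1 was the highest of the 6 libraries for the GC-poor SEMA3C and LIG4 and the lowest for the GC-rich JUND and CEBPB. SEMA3C was named because leaving this library out changed its result, and JUND and CEBPB after their values were seen. These genes illustrate the contrast and do not test it.

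Across all 12290 genes the same library stood apart. For each library the deviation of every gene's log2 CPM from its mean over the 6 libraries was ranked against exon GC content. Spearman's rho was -0.76, 0.44 and 0.32 in NT replicates 1 to 3 and -0.22, 0.60 and -0.59 in HU replicates 1 to 3, across genes, which are not independent replicates. Both groups thus held libraries rich in GC-poor mRNAs and libraries rich in GC-rich ones. The mean rho was -0.07 in the HU libraries and 0.0 in the NT libraries (exact permutation test, two-sided, p = 1.0, where 3 against 3 cannot go below 0.1). In the quintile of genes with the lowest GC content, NT replicate 1 lay 0.29 above the mean of the libraries on the log2 scale and HU replicate 3 lay 0.24 above it, while HU replicate 2 stood at -0.26. The first principal component, with 46.4% of the variance, set NT replicate 1 and HU replicates 1 and 3 (scores 27.5, 13 and 21) apart from NT replicates 2 and 3 and HU replicate 2 (-25.8, -15.4 and -20.3), and so did not separate HU from NT. The part of RNA quality, library preparation or polysome loading in these trends was not tested.

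**Figure D2:**
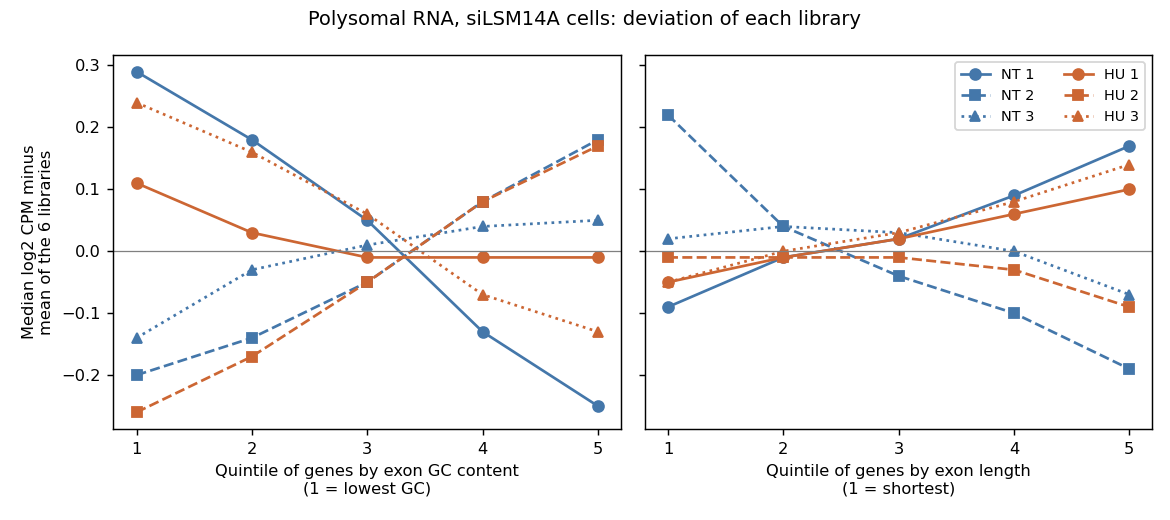
Median deviation of log2 CPM from the mean of the 6 libraries (vertical axis) in quintiles of the 12290 tested genes by exon GC content (left) and exon length (right), 1 line per library, NT in blue and HU in orange. NT 1 and HU 3 slope down with GC content and NT 2 and HU 2 slope up, so each group holds both patterns. NT 2 has the steepest fall with length, from 0.22 in the shortest quintile to -0.19 in the longest.

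The count of genes nearest to a call depended on single libraries. Without NT replicate 1, 971 genes had an unadjusted p-value under 0.05, 870 of them higher with HU (7.05%) and 101 lower (0.819%). SEMA3C was then the 1 gene at an adjusted p-value under 0.05 (log2 fold change 1.36, adjusted p = 0.0387), whereas with all 6 libraries it had a log2 fold change of 0.54. Without HU replicate 1 the count was 56, and leaving out NT replicate 2, HU replicate 2, NT replicate 3 or HU replicate 3 gave 98, 199, 122 and 294. Of the 83 higher genes, 56 were among those higher without NT replicate 1, and 25 were among those without HU replicate 1. Leaving out HU replicate 3 along with NT replicate 1 gave 81 genes at an adjusted p-value under 0.05, all higher with HU, but both libraries were chosen after their values were seen and this leaves 2 libraries a group.

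Some of the named genes kept a small p-value whichever library was left out. SOGA1, ZMIZ1, ANKRD11, EP300, PCDHGA2, ARID1A and HSPE1 had an unadjusted p-value under 0.05 in all 6 fits that left out 1 library. ZC3H18 and SCAF4 had it in 5 of 6. RTEL1 had it in 4 of 6 and LIG4 in 1 of 6. PPA2 and EED, which looked tight above, had it in 3 of 6 each. Apart from RTEL1 and LIG4, these genes were chosen for small p-values in the same 6 libraries. Passing these fits is therefore no independent support for them.

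**Figure D3:**
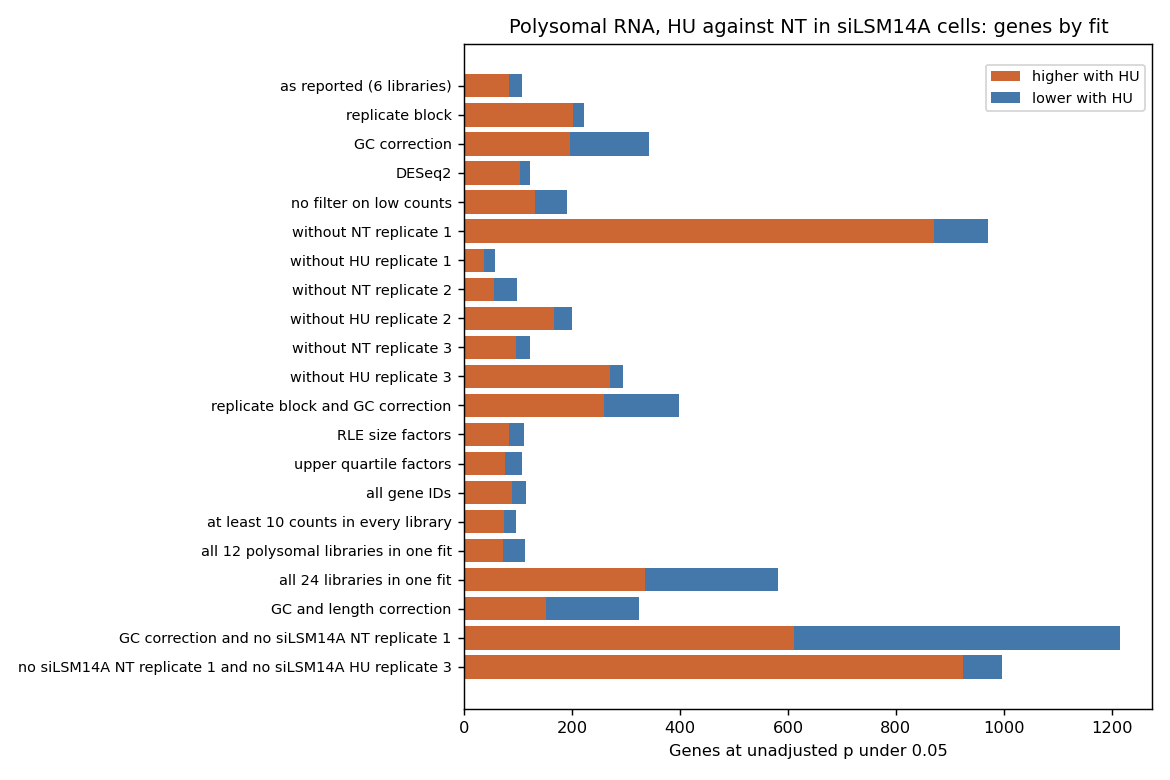
Genes with an unadjusted p-value under 0.05 (number on the horizontal axis) in the comparison as reported and in each of its 20 alternatives, higher with HU in orange and lower in blue. The count runs from 56 without HU replicate 1 to 1215 without NT replicate 1 and with a GC correction.

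The genes nearest to a call were also compared, with no test, by exon length, which is that of all annotated exons of a gene merged. The 83 higher genes had a median exon length of 8193 bases and the 24 lower genes one of 3204, against 5473 over all genes tested. The median exon GC content was 53.6% in the higher and 44.2% in the lower genes, against 47.8% over all genes tested, and 1 of the 83 higher genes was in the quintile with the lowest GC content against 31 and 22 in the top 2 quintiles. In quintiles of the genes from the shortest to the longest, the median log2 fold change was -0.08, -0.02, 0.02, 0.06 and 0.10. Across all genes tested, rho of log2 fold change with length was 0.35 and with GC content -0.05, while length and GC content themselves had a rho of -0.32. NT replicate 2 was the library poorest in genes with a large exon length. Without it the medians of the quintiles were 0.02, 0.01, 0.02, 0.04 and 0.04, and rho with length was 0.06. By library, rho with length was 0.30, -0.43 and -0.16 in NT replicates 1 to 3 and 0.30, -0.08 and 0.25 in HU replicates 1 to 3, with means of -0.10 and 0.16 (exact permutation test, two-sided, p = 0.4). In siCTRL cells the same quintiles had medians of 0.11, 0.01, -0.02, -0.06 and -0.07, the opposite order. There rho with length was -0.23 with all 6 libraries, -0.10 without siCTRL HU replicate 2 and -0.03 without siCTRL NT replicate 3, so it depended on single libraries too.

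Ribosomal protein mRNAs, whose translation is controlled through a 5′ terminal oligopyrimidine (TOP) tract downstream of mTOR, lay almost all on one side of 0. Of 78 cytosolic ribosomal protein genes tested, 77 had a log2 fold change below 0, and the median was -0.23 against 0.01 over all genes tested. In 23 of them all HU libraries lay below all NT libraries, against 3.52% of all genes, but RPS3A and RPL34 alone had an unadjusted p-value under 0.05, against 0.195% of all genes called lower. RPS3A held 642, 854 and 721 CPM without HU and 547, 614 and 567 CPM with it (log2 fold change -0.36, SE 0.151). The library of NT replicate 2 set the size of this difference. The median member deviated from its mean by -0.09, 0.40 and -0.02 in NT replicates 1 to 3 and by -0.10, -0.06 and -0.13 in HU replicates 1 to 3, on the log2 scale. Without NT replicate 2 the median log2 fold change was -0.06, 55 of 78 were below 0 and none had an unadjusted p-value under 0.05 in edgeR. Without NT replicate 1 the median was -0.30, 76 of 78 were below 0 and 11 were lower at an unadjusted p-value under 0.05, against 0.819% of all genes in that fit. Medians in total RNA and in siCTRL polysomal RNA were 0.09 and 0.22.

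The mRNAs of complex I depended on the same library. Of 35 tested nuclear genes for subunits of respiratory complex I, 32 had a log2 fold change below 0 with a median of -0.14, and 18 of 35 did without NT replicate 2, where the median was -0.01. With all 6 libraries none had an unadjusted p-value under 0.05 in edgeR. In 5 of 35 all HU libraries lay below all NT libraries, against 3.52% of all genes. Without NT replicate 1 the median was -0.20, with 3 of 35 lower at an unadjusted p-value under 0.05, against 0.819% of all genes in that fit. The member with the smallest p was NDUFB6, at 47.1, 63.5 and 48.7 CPM without HU and 44, 42.3 and 43.8 CPM with it (log2 fold change -0.29). A further list of TOP mRNAs held those of translation factors and of other genes, such as TPT1, the translationally controlled tumour protein. Of its 18 tested genes, 14 were below 0 (median -0.11, and -0.10 without NT replicate 2), among them TPT1 at -0.34. EEF2, the elongation factor that moves the ribosome along the mRNA, went the other way, from 4870, 5060 and 5630 CPM to 6510, 8560 and 4310 CPM, where the HU libraries lay on both sides of all NT libraries.

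The 13 mRNAs encoded by mitochondrial DNA are made and translated inside mitochondria, so their presence in the fraction is not cytosolic translation. Their median log2 fold change was 0.20, and it moved from -0.02 without NT replicate 3 to 0.66 without NT replicate 2. The median deviations were -0.33, 0.50 and -0.72 in the NT libraries and -0.05, -0.04 and 0.44 in the HU libraries, so that the NT libraries spread over a wider range than the groups differ. MT-ND6, the complex I subunit of the light strand, was the 1 of 13 with an unadjusted p-value under 0.05, against 0.675% of all genes called higher. It was also the 1 member with all HU libraries above all NT libraries, against 2.04% of all genes. It held 21.4, 18.9 and 11.2 CPM without HU and 26.4, 24.5 and 25.8 CPM with it (log2 fold change 0.57, SE 0.23).

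**Figure D4:**
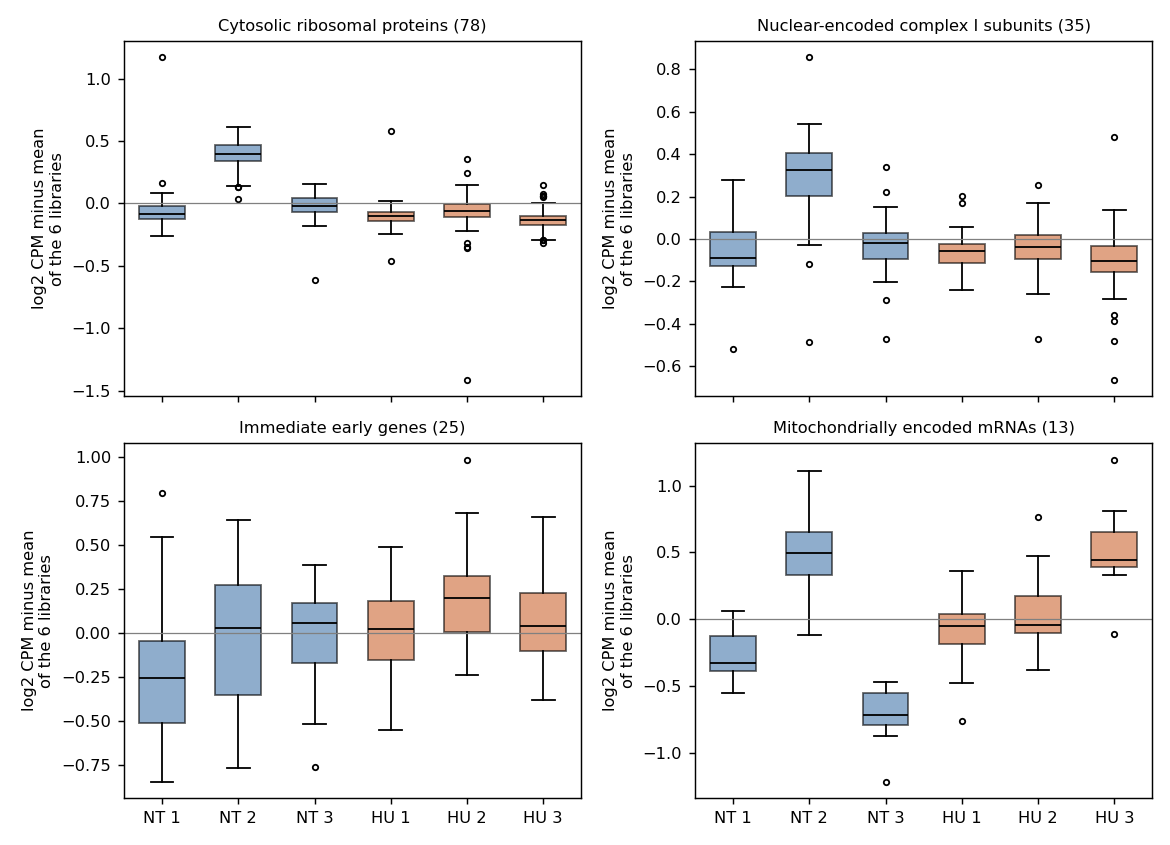
Deviation of log2 CPM from the mean of the 6 libraries for the members of 4 gene lists, by library; boxes span the quartiles with the median as a line, whiskers reach 1.5 times the quartile range and circles lie beyond. NT 2 stands above the other 5 libraries for ribosomal proteins (median 0.40) and complex I subunits (0.33), and the NT libraries spread widely for mitochondrially encoded mRNAs.

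Immediate early genes, which are transcribed within minutes of a stimulus, leaned towards higher values with HU. Of 25 tested, 21 had a log2 fold change above 0, with a median of 0.18, and this median stayed between 0.09 and 0.22 over the fits without 1 library. Of these, 2 were higher at an unadjusted p-value under 0.05, against 0.675% of all genes, and in 4, FOS, EGR3, MYC and ZFP36, all HU libraries lay above all NT libraries, against 2.04% of all genes. FOS, a subunit of AP-1, held 12.6, 10.8 and 12.2 CPM without HU and 17.8, 16 and 14.1 CPM with it (log2 fold change 0.43, SE 0.176). ZFP36, which binds AU-rich elements and recruits deadenylases, held 3.29, 5.73 and 4.91 CPM without HU and 6.41, 6.92 and 6.60 CPM with it (log2 fold change 0.52). JUN, the partner of FOS, overlapped between groups, at 19.2, 10.7 and 11.1 CPM and 22.3, 15.2 and 20.8 CPM (log2 fold change 0.51). Without NT replicate 1, 15 of 25 were above 0, and 5 were higher and 1 lower at an unadjusted p-value under 0.05, against 7.05% and 0.819% of all genes in that fit. The median of the list was 0.04 in total RNA of siLSM14A cells and 0.31 in polysomal RNA of siCTRL cells.

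Other stress responses showed no common direction. Of 23 tested p53 targets, 7 were above 0 and 16 below (median -0.03), and 0 had an unadjusted p-value under 0.05 in edgeR or all HU libraries on one side. XPC, a damage sensor of nucleotide excision repair, had the smallest p of them, at a log2 fold change of 0.28. Of 27 tested genes of the integrated stress and unfolded protein responses, 12 were above 0 and 15 below (median -0.03). ATF3 held 3.89, 3.40 and 3.71 CPM without HU and 3.56, 3.78 and 6.32 CPM with it, so that its log2 fold change of 0.31 rested on HU replicate 3. Of 18 tested heat shock and chaperone genes, 12 were above 0 (median 0.07). HSPE1 was the 1 of 18 with an unadjusted p-value under 0.05 in edgeR, against 0.195% of all genes called lower. It was also the 1 of 18 with all HU libraries below all NT libraries, against 3.52% of all genes. HSPH1, an HSP110 family chaperone of low GC content, held 396, 166 and 216 CPM without HU and 369, 288 and 378 CPM with it, where, as in LIG4, the first NT library was above and the other NT libraries below every HU library.

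Genes of deoxynucleotide supply and of the ATR-CHEK1 checkpoint differed little. Of 16 tested genes of deoxynucleotide supply, 13 had a log2 fold change below 0 (median -0.10), in 3 all HU libraries lay below all NT libraries, against 3.52% of all genes, and none had an unadjusted p-value under 0.05 in edgeR. RRM1, the large subunit of ribonucleotide reductase, held 360, 176 and 280 CPM without HU and 322, 374 and 258 CPM with it (log2 fold change 0.23). NME2, a nucleoside diphosphate kinase that shares exons with the read-through gene NME1-NME2, had the smallest p in the list (log2 fold change -0.47). The list for the ATR-CHEK1 checkpoint, which detects stalled forks, also held the checkpoint genes ATM and CHEK2. Of its 20 tested genes, 8 were above 0 and 12 below (median -0.02). CHEK2 had the smallest p, at a log2 fold change of -0.23. It was the 1 of 20 with all HU libraries below all NT libraries, against 3.52% of all genes. CLSPN, the adaptor through which ATR activates CHEK1, held 42.9, 18.3 and 22.5 CPM without HU and 40.2, 30.1 and 39.3 CPM with it.

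DNA repair and replication genes were spread on both sides of 0. Of 13 tested genes of non-homologous end joining, 5 were above 0 and 8 below (median -0.06), and none had an unadjusted p-value under 0.05 in edgeR. In 1 of 13, XRCC6, the Ku70 subunit, all HU libraries lay below all NT libraries, against 3.52% of all genes. It held 1110, 1100 and 1090 CPM without HU and 1030, 997 and 979 CPM with it, a log2 fold change of -0.14. DCLRE1C, the nuclease Artemis, held 11, 5.11 and 5.19 CPM without HU and 9.58, 7.53 and 8.90 CPM with it, again with the first NT library highest. Of 31 tested genes of homologous recombination and the Fanconi anemia pathway, 17 were above 0 and 14 below (median 0.01). RTEL1 was the 1 of 31 with an unadjusted p-value under 0.05 in edgeR, against 0.675% of all genes called higher. It was also the 1 of 31 with all HU libraries above all NT libraries, against 2.04% of all genes. Without NT replicate 1 the medians of the 2 repair lists were 0.02 and 0.12, and 2 of 13 and 6 of 31 genes were higher at an unadjusted p-value under 0.05, against 7.05% of all genes in that fit. MRE11, a nuclease of break resection, was one of those 6, with a log2 fold change of 0.36 with all 6 libraries and 0.73 without NT replicate 1.

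Of 38 tested genes of replication licensing and the fork, 16 were above 0 and 22 below (median -0.02). LIG1, the ligase that joins Okazaki fragments, held 120, 109 and 116 CPM without HU and 161, 165 and 111 CPM with it, so that HU replicate 3 lay among the NT libraries (log2 fold change 0.34). Of 25 tested genes of mitosis and G2/M, 13 were above 0 and 12 below (median 0.02). CCNB1, cyclin B1, held 299, 245 and 289 CPM without HU and 241, 228 and 240 CPM with it (log2 fold change -0.23), and KIF11, the kinesin of spindle poles, held 112, 46.4 and 42.1 CPM and 105, 69.1 and 82.2 CPM. Replication-dependent histone mRNAs lack poly(A) tails, and 15 of 36 passed the filter on low counts, so their median of -0.10 speaks for few members. The smallest p among them was that of H2AC13, at 4 to 22 counts per library (log2 fold change 0.71).

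**Figure D5:**
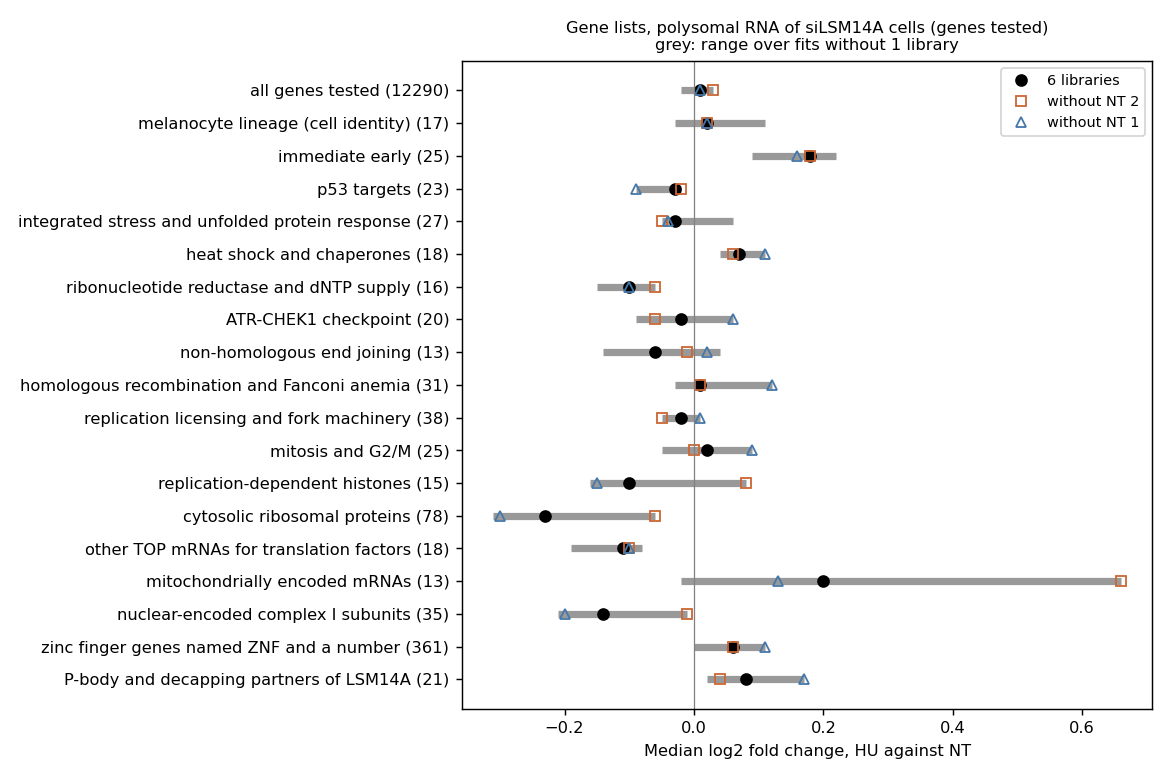
Median log2 fold change of HU against NT (horizontal axis) for all genes and for gene lists with at least 10 tested members, numbers of genes in brackets; the black circle is the fit of 6 libraries, the square the fit without NT 2, the triangle the fit without NT 1, and the grey bar the range over the 6 fits without 1 library. The bar of immediate early genes lies between 0.09 and 0.22, and that of ribosomal proteins between -0.31 and -0.06.

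LSM14A itself and its partners in processing bodies were also examined as 1 list. Of 21 tested genes, 15 were above 0 and 6 below (median 0.08), and 2 were higher at an unadjusted p-value under 0.05, against 0.675% of all genes, both members of the ataxin-2 family of RNA-binding proteins. ATXN2L held 153, 150 and 182 CPM without HU and 252, 256 and 183 CPM with it (log2 fold change 0.51, SE 0.168). HU replicate 3 lay 1 CPM above the highest NT library, and the siCTRL comparison gave nearly the same log2 fold change, 0.53 (SE 0.19). ATXN2 had a log2 fold change of 0.48, with overlapping groups. EDC4, the scaffold of decapping, ranged from 66.9 to 140 CPM without HU and from 104 to 240 CPM with it (log2 fold change 0.62). Among 361 tested zinc finger genes named ZNF, 222 were above 0 and 139 below (median 0.06), 3 were higher and 2 lower at an unadjusted p-value under 0.05, against 0.675% and 0.195% of all genes, and ZNF443 had the smallest p, at 5 to 23 counts per library (log2 fold change -1.14).

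Markers of the melanocyte lineage, from which melanoma arises, were present, which does not tell melanoma lines apart. All 17 melanocyte lineage markers of the list were tested, with a median log2 fold change of 0.02, and none had an unadjusted p-value under 0.05 in edgeR. Their summed level was 7320 to 8340 CPM without HU and 7270 to 9450 CPM with it. The markers were uneven: CSPG4 had 102407 to 153426 counts per library and PMEL 28325 to 59415. MLANA had 119 to 201, TYRP1 66 to 138 and SOX9 25 to 65. PAX3 had the smallest p of the melanocyte lineage markers (log2 fold change 0.28). Of 7 keratinocyte and epithelial markers, 2 passed the filter, KRT10 and KRT14, KRT5 was at 0 counts in every library, and the summed level was 27.5 to 38.4 CPM without HU and 25.1 to 30.5 CPM with it, with a log2 fold change of -0.23 for KRT10. Of 12 fibroblast, endothelial and leukocyte markers in the table, 7 passed the filter, and CD3E and CD68 were at 0 counts. The summed level was 23.3 to 40.3 CPM without HU and 25.4 to 43.5 CPM with it. LUM had the most counts of these markers, 500 to 1248 per library. COL3A1, a fibrillar collagen, was the 1 of these 7 at an unadjusted p-value under 0.05 in edgeR, against 0.675% of all genes called higher. It was also the 1 of 7 with all HU libraries above all NT libraries, against 2.04% of all genes. It ran from 0.824 to 1.58 CPM without HU and from 1.70 to 2.27 CPM with it (log2 fold change 0.70).

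Set beside the other libraries of the series, the comparison had few genes near a call. If no gene differed, a share of 0.05 of genes would be expected at an unadjusted p-value under 0.05. Total RNA of siLSM14A cells had 0 genes at an adjusted p-value under 0.05 and 650 at an unadjusted one (5.2%), 201 of them higher (1.61%) and 449 lower (3.59%). Polysomal RNA of siCTRL cells had 0 and 259 (2.1%), of which 151 were higher (1.23%) and 108 lower (0.877%), or 1 and 1263 when replicate numbers were blocked, since same-numbered libraries deviated together there. Of the 83 genes higher in polysomal RNA of siLSM14A cells, 2 were also higher at an unadjusted p-value under 0.05 in total RNA, and of the 24 lower genes 3 were also lower. How far siLSM14A and siCTRL cells responded differently was tested as an interaction over the 12 polysomal libraries and gave 0 genes at an adjusted p-value under 0.05 and 134 at an unadjusted one (1.07%), 90 above 0 (0.719%) and 44 below (0.352%). The difference between the polysomal and the total RNA response within siLSM14A cells, which is the change in translation efficiency, gave 0 and 179 (1.41%), 105 above 0 (0.829%) and 74 below (0.585%). For LIG4 these differences were 0.61 (SE 0.619) and 0.76 (SE 0.421), and for HPRT1 -0.10 (SE 0.196) and -0.01 (SE 0.155).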

How the data were processed

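Per the methods and the labels, the authors trimmed reads with Trim Galore, used STAR 2.6.1a for alignment to hg19 and counted reads per Gencode gene. The table they deposited holds these raw counts, not normalized, from poly(A)-selected stranded libraries. The 6 libraries held 29460121 to 38520350 counts each, all 24 held 24789280 to 44897501, and genes with few counts are limited by counting error. Of 20345 gene IDs, 19086 were protein-coding in the Gencode annotation of GRCh37 used here, and 551 of another type and 708 without a match stayed out.

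The test was the quasi-likelihood F-test of edgeR 4.0.16 (R 4.3.3) with TMM factors, after filterByExpr (min.count 10, min.total.count 15), adjusted by Benjamini-Hochberg, with a threshold of 0.05, and the code was tested on simulated counts. The study's own test, Xtail, was not used. Each comparison used its own libraries only. The labels do not say whether replicates were separate cultures, so p-values measure the spread between these samples, and no pair of replicates differed by less than sampling noise (chi-square per gene 43.5 to 116). Same-numbered HU and NT libraries of siLSM14A cells deviated together with correlations of 0.36, 0.21 and -0.27 and were not taken as pairs; in siCTRL polysomal RNA they were (0.29, 0.24 and 0.52). Exon GC content and length came from the annotation, over all exons of a gene merged. This length can exceed that of the gene's mRNAs. The GC correction used loess curves (span 0.3) as offsets.

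Named are LSM14A, LIG4, RTEL1 and HPRT1, 8 genes per direction by smallest p at a mean of at least 20 counts, the member with the smallest p in each list, and genes at an adjusted p-value under 0.05 without 1 replicate; SEMA3C came by the last rule. Other list members are examples at the extremes of their list. RPL34, ATXN2, EGR3, MYC, JUND and CEBPB in their paragraphs were named after their values were seen. So were the markers CSPG4, PMEL, MLANA, TYRP1 and LUM. The comparison and the 20 gene lists were chosen with earlier results of these data known. Alternatives were DESeq2 1.42.0, other size factors, other filters, all gene IDs, the replicate block, GC and length corrections, joint fits and leaving out libraries.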

Additional observations from a re-analysis of the deposited data

Results flagged for a closer look

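For 18 differences between 2 responses, the interaction term had an unadjusted p-value under 0.05 in edgeR, which is what set them apart. None passed the adjustment over all genes, with adjusted p-values of 0.954 for the differences between siRNAs and 1.0 for those between fractions, so each is a value near a call and no more. Groups of 3 libraries were too small for a test of single outlying libraries.

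The response of polysomal RNA to HU in siLSM14A cells minus that in siCTRL cells was 1.90 for RTEL1 (SE 0.639), 1.83 for PCDHGA2 (SE 0.455), -0.96 for HSPE1 (SE 0.246), -1.41 for SMIM8 and -0.95 for COMMD3, on the log2 scale. In siCTRL cells alone the log2 fold changes of RTEL1, PCDHGA2 and HSPE1 were -0.37, -0.75 and 0.30. RTEL1, PCDHGA2, SMIM8 and COMMD3 had at most 113 counts in any library of the siLSM14A comparison.

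The polysomal response minus the total RNA response in siLSM14A cells was 1.53 for RTEL1, 1.34 for PCDHGA2, 0.66 for SOGA1, 0.59 for EP300, 0.55 for ANKRD11, 0.50 for SCAF4, 0.49 for ZMIZ1, and 0.45 each for ARID1A and ZC3H18. It was -1.13 for JAM3, -0.93 for COMMD3, and -0.38 each for RPS3A and NDUFB6. These genes were named for their polysomal values, which enter the difference, so this is not independent of how they were chosen. RPS3A and NDUFB6 share with their lists the high level in NT replicate 2, and without that library their polysomal log2 fold changes were -0.24 and -0.14.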

How the results depend on the processing

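The comparison of the 6 libraries had no gene at an adjusted p-value under 0.05 in 18 of its 20 alternatives. The exceptions were without NT replicate 1 (1 gene, SEMA3C) and without both NT replicate 1 and HU replicate 3 (81 genes). Its 107 genes at an unadjusted p-value under 0.05 became 342 with the GC correction, 323 with GC and length corrected, 191 with no filter on low counts and 581 with all 24 libraries in one fit. They became 1215 without NT replicate 1 and with the GC correction, and 996 without NT replicate 1 and HU replicate 3. The reported split of 83 higher and 24 lower became 195 and 147 with the GC correction, 151 and 172 with GC and length corrected, 611 and 604 with the GC correction and no NT replicate 1, 55 and 43 without NT replicate 2, 71 and 42 with the 12 polysomal libraries in one fit and 334 and 247 with all 24. Without 1 library the counts ran from 0 to 1 gene adjusted and from 56 to 971 unadjusted. NT replicate 1, HU replicate 1, HU replicate 2 and HU replicate 3 each moved the count by over 1.5 times, to 971, 56, 199 and 294. The length correction and the joint omissions were chosen after seeing the data. The cause was not tested. DESeq2, other size factors, all gene IDs and a minimum of 10 counts in every library gave 95 to 122.

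The replicate block moved the unadjusted count to 222, and to 398 together with the GC correction. As the pairing check failed for replicate 3, the block is no paired design there. In siCTRL polysomal RNA, where the pairing held, the block gave 1 gene adjusted and 1263 unadjusted, against 259 without it. In total RNA it gave 1297 in place of 650, and for the difference between siRNAs 487 in place of 134. With polysomal and total libraries of the same group and replicate number as a block, the difference between fractions had 143 in place of 179.

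In total RNA the GC correction gave 406, and leaving out 1 library gave 0 to 6 genes adjusted and 317 to 1026 unadjusted. In siCTRL polysomal RNA no filter gave 422, and leaving out 1 library gave 0 to 2 and 38 to 928. For the difference between siRNAs the GC correction gave 334, no filter 241, and leaving out 1 library 37 to 829. For the difference between fractions the GC correction gave 471, and leaving out 1 library gave 0 to 96 adjusted and 94 to 1577 unadjusted, the upper ends both without polysomal NT replicate 1.

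For the named genes, 663 values under alternatives kept direction and side of an unadjusted p-value of 0.05, 33 came to pass it, 58 no longer did and 2 changed sign. LSM14A went from -0.01 without NT replicate 3 to 0.34 without NT replicate 1, and ATF3 from -0.0 without HU replicate 3 to 0.46 without HU replicate 1, on the log2 scale. Depth limits RTEL1, PCDHGA2, SMIM8, JAM3, H2AC13 and ZNF443 most, at 4 to 53 counts per library.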
